A study of Mus musculus with 2 samples.

Results

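Sd10 is the last of the 13 clusters into which the study's authors divided mouse testis cells, and it holds the latest spermatids that were captured. Its members are the cells that the deposited cell table assigns to Sd10, with the wild-type (WT) and the Tex13a knock-out (KO) library kept apart. There are 462 such cells among 12408, 184 of 5170 in WT (3.56%, exact binomial 95% interval 3.07 to 4.10) and 278 of 7238 in KO (3.84%, 3.41 to 4.31). The neighbouring cluster Sd9 holds 856 cells, 421 in WT and 435 in KO. All intervals below are also 95% intervals that cover counting error only.

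Both groups are adult males without treatment, of the strain given as C57BL/6 in the labels and as C57BL/6N in the study's methods. In the KO animals all exons of Tex13a, a gene of the germ line, were deleted with CRISPR/Cas9 in every cell of the body, and the WT animals carry no deletion. Testes of several mice were pooled per genotype, digested with collagenase I and captured as single cells in microwells with barcoded beads. With 1 library per genotype, genotype and library cannot be told apart, and the authors formed the clusters from the same transcripts that are described here. The text therefore gives values and no tests. The symbol Tex13a has 7 possible rows in the matrix and was not read here, so the deletion was not checked. No cell barcode was shared by the libraries.

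Spermiogenesis turns a round haploid cell into a sperm. Transition proteins and then protamines replace the histones, the nucleus condenses and transcription stops, so that late spermatids live on messages made and stored earlier. The tail is assembled from the axoneme, outer dense fibres, fibrous sheath and a sheath of mitochondria, and the surplus cytoplasm is shed at the end. The comparison of Sd10 with Sd9 asks which of the stored transcripts are still there at the latest stage seen, and which are not.

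The values are counts of unique molecular identifiers (UMIs), each standing for 1 captured transcript molecule. The Sd10 cells hold 1252689 UMIs in WT and 1762193 in KO, with medians of 5271 and 5287 UMIs and of 1077.5 and 1127.5 genes per cell. Every Sd10 cell had more than 3000 UMIs. In Sd9 the medians were 4994 and 4978 UMIs and 1155 and 1203 genes. Thus Sd10 cells carried slightly more UMIs from fewer genes than Sd9 cells in both libraries. For each cluster of a library the UMIs of its cells were added up and divided by their total (CPM, per 1000000 UMIs), and a difference is the log2 ratio of these CPM. The sums are shares of a total, so UMIs per cell are given beside the main results.

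The 4 markers given for Sd10 were higher there than in Sd9 in both libraries. They were chosen with earlier results of these data known, so their levels describe the cluster and do not test its label. Oaz3, the antizyme of the testis that limits polyamine synthesis, had 16762 CPM in Sd9 and 30623 CPM in Sd10 of WT, and 16694 and 31904 CPM in KO. Gapdhs, the sperm form of a glycolytic enzyme, had 4273 and 7117 CPM in WT and 4051 and 6748 CPM in KO. Tppp2, a tubulin polymerisation protein, had 1656 and 3144 CPM in WT and 1638 and 3184 CPM in KO. Car2, a carbonic anhydrase, had 1206 and 2049 CPM in WT and 1379 and 2434 CPM in KO. Each marker was highest in Sd10 among the 13 clusters of its library, and the plot of levels over the clusters shows that each climbed by a larger factor from Sd8 to Sd10 than from Sd6 to Sd8. As counts per cell, Oaz3 stood at 104 UMIs in Sd9 and 208 in Sd10 of WT, and at 97.9 and 202 in KO. In late spermatocytes (Sc2), which should lack these transcripts, Oaz3 was read at 8.99 UMIs per cell in WT and 9.41 in KO. These means were carried by few cells. Oaz3 made up a median of 0.0172% of the UMIs of a Sc2 cell in WT and 0.0204% in KO, with a 95th percentile of 0.351% and 0.314% and a maximum of 2.02% and 2.24%.

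**Figure D1:**
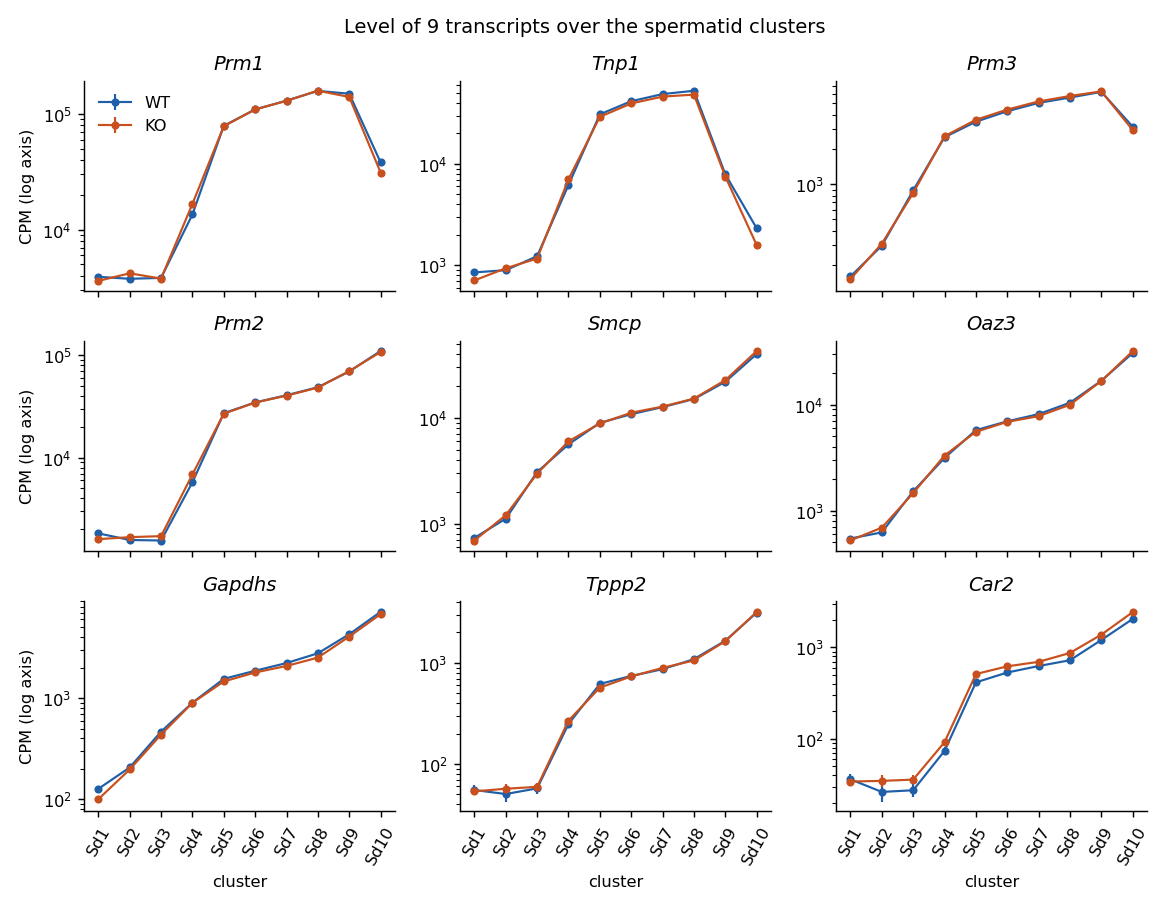
Level in CPM (log axis) of 9 transcripts in the clusters Sd1 to Sd10 of the WT and KO libraries, with exact Poisson 95% intervals for counting error. Prm1, Tnp1 and Prm3 are lower in Sd10 than in Sd9, whereas Prm2, Smcp and the 4 markers are highest in Sd10 in both libraries.

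Protamine transcripts took the largest share of Sd10 and parted ways. Prm1, which encodes the first of the 2 protamines that pack sperm DNA, made up 14.9% of all UMIs in Sd9 and 3.80% in Sd10 of WT, and 13.98% and 3.11% in KO. Its log2 ratio of Sd10 to Sd9 was -1.97 (-1.99 to -1.96) in WT and -2.17 (-2.18 to -2.16) in KO. Prm2, which encodes the other protamine, made up 6.95% in Sd9 and 11.03% in Sd10 of WT, and 7.01% and 10.8% in KO, with log2 ratios of 0.67 (0.66 to 0.68) and 0.62 (0.61 to 0.63). Among the genes read, Prm1 was thus the leading transcript of Sd9 and Prm2 that of Sd10. Per cell, Prm1 went from 928 to 259 UMIs in WT and from 820 to 197 in KO, and Prm2 from 433 to 751 and from 411 to 683. The 2 genes are neighbours on the minus strand of GRCm38 (positions from GENCODE vM21), with Prm1 at chr16:10796326-10805839 and Prm2 at chr16:10791380-10796134. Prm3, next to them at chr16:10790505-10790914, had 6280 CPM in Sd9 and 3143 CPM in Sd10 of WT, and 6344 and 2940 CPM in KO.

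The transcripts of the transition proteins, which hold the DNA between histones and protamines, were low by Sd10. Tnp1 made up 5.29% of the UMIs in Sd8, 0.790% in Sd9 and 0.231% in Sd10 of WT, and 4.84%, 0.751% and 0.158% in KO. Tnp2 had a log2 ratio of Sd10 to Sd9 of -1.98 in WT and -2.31 in KO. The Tnp1 level of Sd10, 15.7 UMIs per cell in WT and 10.01 in KO, lay below that of Sc2, 23.7 and 15.8. In the single cells the order was the other way round, with a median Tnp1 share of 0.0718% in Sd10 of WT and 0.0777% in KO against 0.0285% and 0.0272% in Sc2, where the 95th percentile was 1.02% and 0.539%. Of 10 testis histone genes read in WT and 9 in KO, 4 and 4 were at least 2-fold lower in Sd10, and none was 1.5-fold higher. Over all genes read, 18.9% were at least 2-fold lower in WT and 21.5% in KO, and 11.4% and 10.1% at least 1.5-fold higher. H1fnt, a linker histone of spermatids, had 1096 CPM in Sd9 and 267 CPM in Sd10 of WT, and 932 and 249 CPM in KO. H2afb1, a short H2A variant, had 3068 and 1307 CPM in WT and 2937 and 1123 CPM in KO. Hils1, a further linker histone of spermatids, stood at 241 and 248 CPM in WT and at 256 and 221 CPM in KO, so that its small ratio had opposite signs in the 2 libraries.

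After Prm2, the most abundant transcript in Sd10 was Smcp, which encodes a cysteine-rich protein of the mitochondrial capsule, with 40140 CPM in WT and 42835 CPM in KO. Its Sd9 levels were 21942 and 22751 CPM. Dbil5, a testis relative of the acyl-CoA-binding protein, had 10837 CPM in Sd9 and 20185 CPM in Sd10 of WT, and 11149 and 20619 CPM in KO. Gsg1, a germ cell gene, had 7201 and 12353 CPM in WT and 6577 and 11171 CPM in KO. Spa17, which binds anchoring proteins of the fibrous sheath, had 5392 and 7695 CPM in WT and 5916 and 8013 CPM in KO. Fabp9, a fatty acid-binding protein of the testis, was among the 20 most abundant as well but had a log2 ratio of -0.10 in WT and -0.17 in KO, and per cell its WT ratio was 0.03. Together the 20 most abundant transcripts held 34.6% of the UMIs in Sd9 and 35.9% in Sd10 of WT, and 34.2% and 35.7% in KO. The share of these 20 genes therefore hardly moved while the order among them did.

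Over all genes, the step from Sd9 to Sd10 was lopsided. Of 4036 genes with at least 10 UMIs in WT, 76 (1.88%) were at least 2-fold higher in Sd10, 460 (11.4%) at least 1.5-fold higher and 763 at least 2-fold lower, with a median log2 ratio of -0.25. Of 4169 genes in KO, 59 (1.42%) were 2-fold higher, 423 (10.1%) 1.5-fold higher and 898 2-fold lower, with a median of -0.37. Among the 1801 genes with at least 100 UMIs in Sd9 and Sd10 together in each library, the ratios ended sharply at a 2-fold gain. In WT 121 of them lay between 0.75 and 1 on the log2 scale and 10 at or above 1, and in KO 126 and 15. On the lower side 312 in WT and 335 in KO were 2-fold lower, down to -3.18 in WT and -3.58 in KO. With ratios of UMIs per cell in place of CPM, 3.89% of genes were 2-fold higher in WT and 3.07% in KO, and with cells thinned to 3000 UMIs 4.65% and 2.78%. Centred on the median of all genes, 6.49% were 2-fold higher and 13.2% 2-fold lower in WT, and 9.09% and 12.5% in KO.

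**Figure D2:**
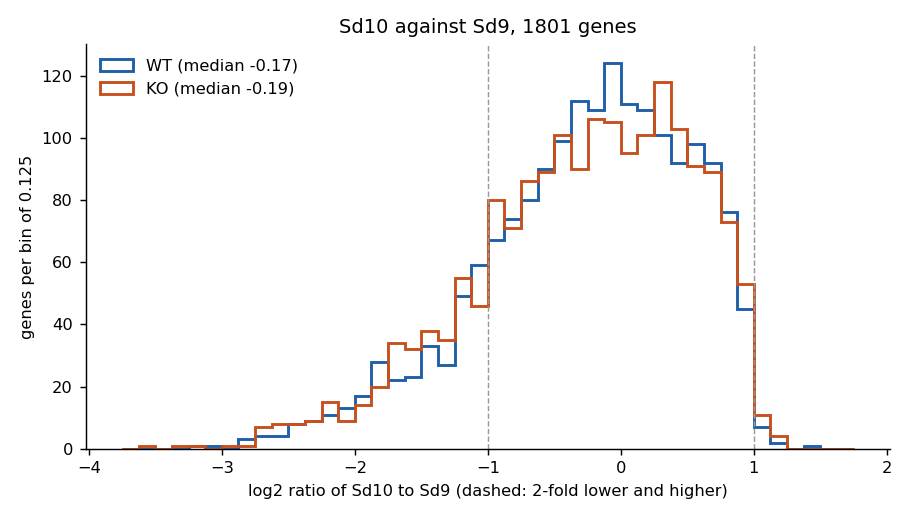
Number of genes by log2 ratio of Sd10 to Sd9 in equal bins, for the 1801 genes with at least 100 UMIs in Sd9 and Sd10 together in each library. The counts drop steeply at a ratio of 1, which 10 genes in WT and 15 in KO reach or pass, while the lower tail runs past -3.

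The 2 libraries gave much the same picture, but the authors integrated the WT and KO cells before clustering. Sd9 and Sd10 were thus divided jointly in both libraries, so the likeness of the ratios is partly built in. Over the 1801 genes the log2 ratios of WT and KO had a Pearson r of 0.89 and a Spearman rho of 0.88, given as a description across genes that share the depth and composition of each library. The ratio had the same sign in both for 1563 genes (86.8%). There were 247 genes at least 2-fold lower in both, 79.2% of those in WT and 73.7% of those in KO, and 197 at least 1.5-fold higher in both. The 197 genes held 27.3% of the UMIs in Sd9 and 46.4% in Sd10 of WT, and 27.5% and 46.8% in KO. The 247 genes held 25.4% and 7.08% in WT, and 23.9% and 6.01% in KO. Of the 197, 187 were already higher in Sd9 than in Sd8 in both libraries, and 170 were highest in Sd10 of all clusters in both. Over the 1801 genes 355 (19.7%) were highest in Sd10 in both. Choosing genes higher in Sd10 than in Sd9 favours such a peak. Of the 247, 147 in WT and 139 in KO had no more UMIs per cell in Sd10 than in Sc2. Sc2 cells held more UMIs, with medians of 11862 in WT and 11467.5 in KO against 5271 and 5287 in Sd10. The shares of the 1801 genes for the comparisons with Sd8 and Sc2 are not given here.

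**Figure D3:**
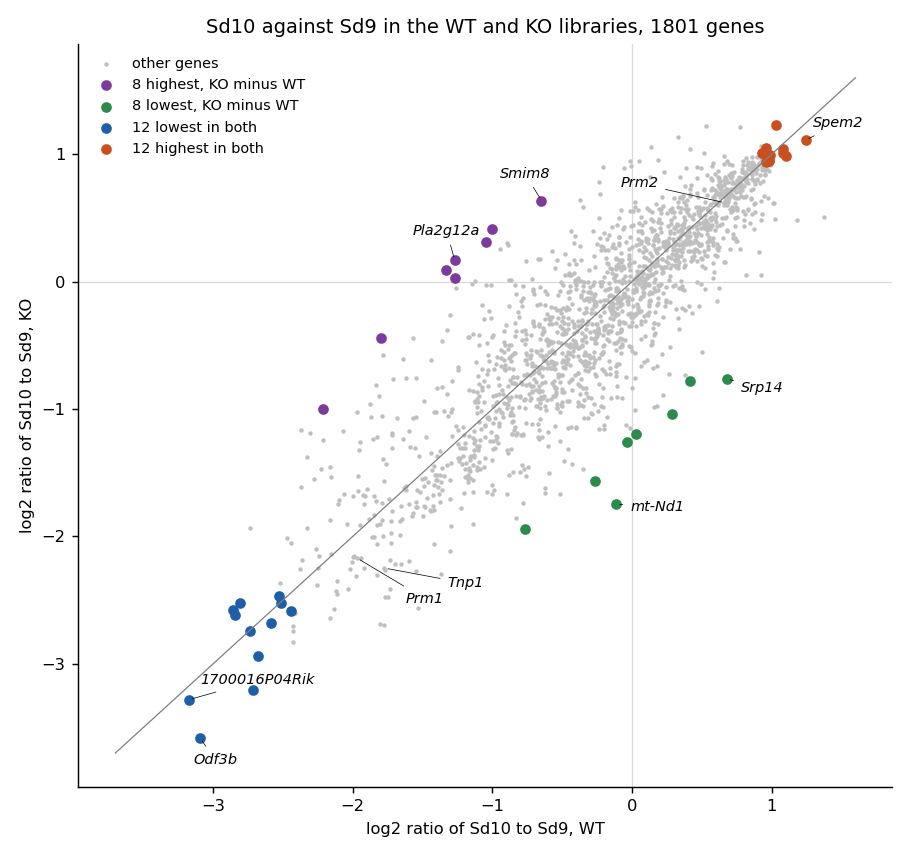
Log2 ratio of Sd10 to Sd9 in WT (horizontal) and KO (vertical) for 1801 genes, with the line of equal ratios. Coloured points are the 12 highest and 12 lowest in both libraries and the 8 genes with the highest and the lowest KO ratio minus WT ratio, from Pla2g12a at 1.44 to mt-Nd1 at -1.63.

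The 12 lowest ratios were below -2.4 in both libraries. 1700016P04Rik, annotated as a long intergenic noncoding RNA at chr6:13413337-13415996, had 2014 CPM in Sd9 and 223 CPM in Sd10 of WT, and 1840 and 189 CPM in KO, log2 ratios of -3.18 (-3.36 to -3.00) and -3.28 (-3.45 to -3.12). With each cell thinned to 3000 UMIs, it was detected in 95.5% of WT cells in Sd9, 30.4% in Sd10 and 14.5% in Sc2 (97.9%, 42.9% and 28.1% without thinning). Odf3b, a relative of an outer dense fibre gene, had 138 and 15.97 CPM in WT and 125.01 and 10.2 CPM in KO. Hspa1l, the testis form of an Hsp70 chaperone, had 477 and 65.5 CPM in WT and 462 and 77.2 CPM in KO. The ratios of these 3 genes were below -2.5 in both libraries. Dynll2, a dynein light chain, had 1564 and 271 CPM in WT and 1460 and 264 CPM in KO. Actrt2, an actin-related protein of the sperm head, had 748 and 131 CPM in WT and 585 and 102 CPM in KO. Svip, a small inhibitor of the ATPase VCP, had 1027 and 188 CPM in WT and 994 and 166 CPM in KO. The other 6 of the 12 lowest were Qrich2, which is needed for the sperm flagellum, the glutathione transferase Gstt4, and 1700008P02Rik, Hmgb1-rs17, Gm14773 and Gm34662. Their log2 ratios lay between -2.84 and -2.59 in WT and between -3.21 and -2.53 in KO. In CPM, 9 of the 12 in WT and 10 in KO were no higher in Sd10 than in the spermatogonia (Sg), and in UMIs per cell 4 of 12 were no higher than in Sc2 in each library. The shares of the 1801 genes for these comparisons are not given here. Spermatid transcripts were also read in Sg, where Prm1 had 21336 CPM in WT and 20665 CPM in KO.

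The highest ratios were close to a doubling. Spem2 had 390 CPM in Sd9 and 924 CPM in Sd10 of WT, and 406 and 876 CPM in KO, log2 ratios of 1.24 (1.12 to 1.37) and 1.11 (0.996 to 1.23). 4930571K23Rik had 804 and 1643 CPM in WT and 730 and 1713 CPM in KO. Azin2, the antizyme inhibitor that opposes the action of Oaz3, had 180 and 386 CPM in WT and 165 and 326 CPM in KO. Pebp1, a phosphatidylethanolamine-binding protein and the most abundant of this group, had 3325 and 6569 CPM in WT and 3498 and 6790 CPM in KO. All 4 were above 0.95 on the log2 scale in both libraries. The kinases Csnk1g2 and Prkcd had ratios of 0.99 and 0.95 in WT and of 0.99 and 1.004 in KO. Gpat4, an enzyme of glycerolipid synthesis, had 371 and 707 CPM in WT and 364 and 733 CPM in KO. 4933411K16Rik and 1700001L05Rik had ratios of 0.98 and 0.96 in WT. Asxl2, Ankra2 and Scrt1, the last a zinc finger repressor, were also among the 12 highest, but at no more than 61.9 CPM in Sd10. Of the 12, 10 were highest in Sd10 among all clusters in both libraries.

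Of 16 genes of the outer dense fibre and fibrous sheath, 4 in WT and 5 in KO were at least 1.5-fold higher in Sd10 and 1 in each was 2-fold lower, with medians of 0.32 and 0.33 against -0.25 and -0.37 over all genes. This and the following lists are to be read beside the shares over all genes. Of these, 11.4% in WT and 10.1% in KO were 1.5-fold higher, and 18.9% and 21.5% were 2-fold lower. Odf1, a main protein of the outer dense fibres, had ratios of 0.89 in WT and 0.98 in KO. Fscb, a calcium-binding protein of the fibrous sheath, had 0.88 and 0.76. Gstm5, a glutathione transferase, had 4185 CPM in Sd9 and 7537 CPM in Sd10 of WT, and 4264 and 7677 CPM in KO. Tcp11 had 3248 and 5453 CPM in WT and 3098 and 4891 CPM in KO. Akap4, the main anchoring protein of the fibrous sheath, had smaller ratios, 0.25 in WT and 0.27 in KO, and Odf2 had 0.16 and 0.00. Odf3b was the member at the low end. The 60 axoneme genes read in WT and 61 in KO had medians of -0.19 and -0.25, below this list but slightly above all genes. These axoneme medians turned above 0 (0.05 and 0.12) when the median over genes was set to 0. Without that centring, 2 axoneme genes in each library were 1.5-fold higher and 7 in each 2-fold lower. Both were smaller shares than over all genes. Spag17, of the central pair of microtubules, had 0.30 and 0.24, while Meig1 had -0.85 and -0.75. Meig1 was read at 79.3 UMIs per cell in Sc2 of WT, against 2.52 in Sd10.

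Among the 20 genes of the mitochondrial sheath and midpiece, only Smcp and Spem1 were 1.5-fold higher, in both libraries, and 2 in WT and 3 in KO were 2-fold lower. Spem1, which acts in the removal of cytoplasm, had 1307 CPM in Sd9 and 2043 CPM in Sd10 of WT, and 1238 and 1982 CPM in KO. Gpx4, the selenium enzyme of the capsule, had 1806 and 1636 CPM in WT and 1334 and 1117 CPM in KO, ratios that turned to 0.10 and 0.11 after centring on the median of all genes. Of the glycolysis genes, 6 of 15 in WT and 6 of 16 in KO were 1.5-fold higher and 1 in each 2-fold lower, with medians of 0.10 and 0.32. These 6 were Gapdhs, Gpi1, Hk1, Aldoa, Pkm and Tpi1, with ratios between 0.74 and 0.90 in WT and between 0.74 and 0.88 in KO. The shares over all genes were 11.4% and 10.1% 1.5-fold higher and 18.9% and 21.5% 2-fold lower. Hk1, the hexokinase at the head of the pathway, had 696 and 1184 CPM in WT and 712 and 1230 CPM in KO. Pgk2, the sperm phosphoglycerate kinase, had 2501 and 3703 CPM in WT and 2559 and 3607 CPM in KO. Ldhc, the sperm lactate dehydrogenase, had ratios of -0.09 and -0.44. Of 71 nuclear genes of the respiratory chain, 3 in WT and 1 in KO were 1.5-fold higher and 9 and 16 were 2-fold lower, with medians of -0.30 and -0.65.

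Of 19 genes of the perinuclear theca and the actin-like group, 6 in WT and 5 in KO were 2-fold lower in Sd10, and 2 and 1 were 1.5-fold higher, with medians of -0.27 and -0.41. Dnajb3, a co-chaperone of the testis, had 4309 CPM in Sd9 and 1115 CPM in Sd10 of WT, and 4266 and 1779 CPM in KO. Actl9, an actin-like protein of the theca, had 1120 and 1482 CPM in WT and 1001 and 1181 CPM in KO. Plcz1, the phospholipase that activates the egg, had ratios of 0.30 and 0.65. The 38 acrosome and egg-binding genes read in WT had a median of -0.40, and the 40 in KO one of -0.50. Of them 6 and 10 were 2-fold lower, and 3 and 1 were 1.5-fold higher. Over all genes 18.9% and 21.5% were 2-fold lower and 11.4% and 10.1% 1.5-fold higher. The share of lower acrosome genes was thus near that over all genes. Crisp2, a cysteine-rich secretory protein of the acrosome and tail, held most of this list's UMIs, with 4114 and 5793 CPM in WT and 4301 and 6366 CPM in KO. Cst8, a cystatin, had -0.75 in WT and -0.72 in KO. The 15 genes of the head-tail coupling and of the manchette, a transient sleeve of microtubules, had medians of -0.39 and -0.35, with 0 in WT and 1 in KO 2-fold lower and 1 and 0 1.5-fold higher. Spata6, of the connecting piece, had 2668 and 1718 CPM in WT and 2662 and 1762 CPM in KO, and Hook1, of the manchette, had 1718 and 1146 CPM in WT and 2009 and 1255 CPM in KO. Spatc1, which encodes the centrosome protein speriolin, had 450 and 759 CPM in WT and 452 and 642 CPM in KO.

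**Figure D4:**
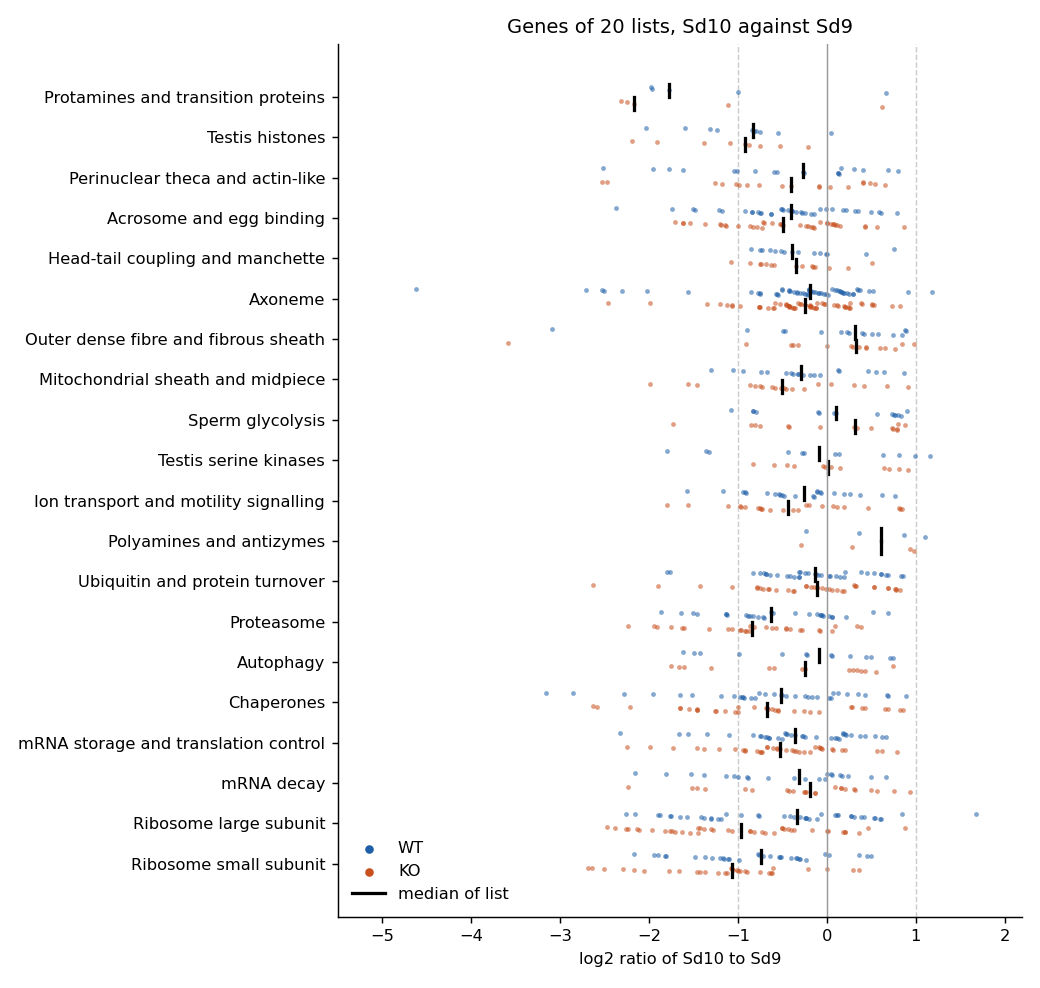
Log2 ratio of Sd10 to Sd9 for the genes of 20 lists with at least 10 UMIs, one point per gene, WT above KO in each list, with the median of each list as a bar. Protamines and transition proteins have the lowest medians (-1.77 in WT and -2.17 in KO) and the polyamine list, with 4 genes, the highest (0.61 in each), and most lists spread to both sides of 0.

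Of 12 testis serine kinases and partners, 4 in each library were 1.5-fold higher, namely Tssk2, Tssk3, Tssk6 and the sparse Tssk4 (7.98 CPM in Sd10 of WT), and 3 in WT and none in KO were 2-fold lower. Tssk6, a kinase needed for chromatin condensation, had 1904 CPM in Sd9 and 3337 CPM in Sd10 of WT, and 1908 and 3340 CPM in KO. Tssk3 had 1111 and 2201 CPM in WT and 1319 and 2482 CPM in KO. Tsacc, a co-chaperone of these kinases, had 1124 and 1193 CPM in WT and 1110 and 1079 CPM in KO. Among 24 genes of ion transport and motility signalling, 2 in WT and 3 in KO were 1.5-fold higher and 2 and 3 were 2-fold lower, with medians of -0.26 and -0.44. All genes had 11.4% and 10.1% 1.5-fold higher and 18.9% and 21.5% 2-fold lower. Atp1b3, a subunit of the sodium pump, had 1128 and 1736 CPM in WT and 1191 and 2092 CPM in KO. In the polyamine list only Oaz3 and Azin2 were 1.5-fold higher. The general antizymes Oaz1 and Oaz2 stood at 75.8 and 13.6 CPM in Sd10 of WT, where Oaz3 stood at 30623 CPM.

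The ubiquitin list had 6 of 37 genes in WT and 6 of 38 in KO 1.5-fold higher, and 2 and 4 were 2-fold lower. For this and the next lists, the shares over all genes were 11.4% and 10.1% higher and 18.9% and 21.5% lower. Rnf138, a ubiquitin ligase, had 2373 CPM in Sd9 and 3814 CPM in Sd10 of WT, and 2263 and 3884 CPM in KO. Ube2n and Ube2k, conjugating enzymes, had ratios of 0.83 and 0.61 in WT and of 0.77 and 0.68 in KO. Of the proteasome genes, 1 of 29 in WT and 0 of 30 in KO were 1.5-fold higher, 7 and 9 were 2-fold lower, and the medians were -0.63 and -0.84. Psma6, a core subunit, held 1579 CPM in Sd10 of WT, with ratios of -0.06 and -0.09 (0.28 in KO after centring). Psme4, the activator that acts on histones in spermatids, had 332 and 203 CPM in WT and 504 and 478 CPM in KO. Among the autophagy genes, Map1lc3a had ratios of 0.75 in both libraries, whereas its relative Gabarapl1 had 4294 and 1396 CPM in WT and 3652 and 1198 CPM in KO. The 35 chaperones had medians of -0.52 and -0.68, with 8 in WT and 14 in KO 2-fold lower and 3 and 4 1.5-fold higher. The 3 in WT, which were also higher in KO, were the small heat shock protein Hspb9 with 5702 CPM in Sd10, the DnaJ protein Dnajb8 with 4997 CPM and the Hsp70 partner Bag1 with 2671 CPM.

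Of 42 genes of the large ribosomal subunit, 15 in WT and 21 in KO were 2-fold lower in Sd10 and 4 and 1 were 1.5-fold higher. Of 32 genes of the small subunit, 13 and 19 were 2-fold lower and none was 1.5-fold higher. Among all genes 18.9% and 21.5% were 2-fold lower and 11.4% and 10.1% 1.5-fold higher. Rpl41, the smallest ribosomal protein, had 3843 CPM in Sd9 and 6898 CPM in Sd10 of WT, and 3534 and 6513 CPM in KO. Rpl37 had ratios of -2.26 and -2.38, so members of the same particle lay more than 3 log2 units apart. Some ribosomal genes have near-identical copies in the genome, between which the authors' counting could split reads. Among 37 genes of mRNA storage and translation control read in WT and 39 in KO, 2 in each were 1.5-fold higher. Another 5 in WT and 7 in KO were 2-fold lower, and the medians of the list were -0.36 and -0.52. Fxr1, an RNA-binding protein of spermatids, had 2340 and 3601 CPM in WT and 2671 and 4611 CPM in KO. Eif4e, which binds the mRNA cap, had 1772 and 2299 CPM in WT and 1789 and 2754 CPM in KO. Fxr1 was 1.5-fold higher in both libraries and Eif4e in KO only. The other such gene in WT was the sparse Cpeb2, with ratios of 0.66 in WT and -1.73 in KO. Ybx2, which stores mRNA in germ cells, had ratios of -0.65 and -0.67. The 22 mRNA decay genes read in WT and 24 in KO summed to only 465 and 531 CPM in Sd10, with 6 and 4 of them 2-fold lower. Upf3a, of nonsense-mediated decay, led that list with 136 and 132 CPM, from 391 and 340 CPM in Sd9. The regulators of round spermatids were likewise low, and Crem, their best-known activator, had 75.04 CPM in WT and 98.7 CPM in KO.

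The median log2 ratio of KO to WT over 3674 genes was 0.04, with 5.8% of genes at least 2-fold higher and 3.65% at least 2-fold lower in KO. In the step from Sd9 to Sd10, the KO ratio minus the WT ratio had a median of -0.04 over the 1801 genes, and 90% of genes lay between -0.64 and 0.63. The 8 genes with the highest difference were Pla2g12a, Mir670hg, Rbmxl2, Btg1, Csnk2a2, Cfl2, Smim8 and Syce1, from 1.44 to 1.21. In WT all 8 were at least 1.5-fold lower in Sd10 than in Sd9, and 6 of them had KO ratios above 0. Cfl2, an actin-severing cofilin, had 156 CPM in Sd9 and 64.7 CPM in Sd10 of WT, and 167 and 170 CPM in KO. Pla2g12a, a phospholipase, had 48.5 and 19.96 CPM in WT and 50.6 and 56.7 CPM in KO. Btg1, which works with the deadenylase complex, had 43.1 and 20.8 CPM in WT and 25.1 and 31.2 CPM in KO. Syce1, of the synaptonemal complex, had 212 and 45.5 CPM in WT and 204 and 102 CPM in KO, but its 7.66 UMIs per cell in Sc2 of WT exceed the 0.31 in Sd10.

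The 8 genes with the lowest difference were mt-Nd1, Srp14, Arl6ip1, Gm10244, 1700019A02Rik, Rp9, Gm19196 and Ndst4, from -1.63 to -1.18. mt-Nd1, a subunit of complex I encoded in the mitochondrion, had 134 CPM in Sd9 and 124 CPM in Sd10 of WT, and 132 and 39.2 CPM in KO. Of the mitochondrial genes, 1 of 9 in WT and 6 of 8 in KO were 2-fold lower, against 18.9% and 21.5% of all genes. Their medians were -0.49 and -1.44. Without cells holding at least 2 somatic marker UMIs the medians were -0.68 and -0.70. The mitochondrial rRNA mt-Rnr2 held most of their UMIs, with 3904 and 4716 CPM in WT and 6101 and 6291 CPM in KO. mt-Nd1 stood at 22.9 UMIs per cell in Sc2 of WT and at 0.84 in Sd10, and the part of free RNA in this difference was not tested. The 16 genes at both ends were sparse, with 101 to 612 UMIs in Sd9 and Sd10 of WT together, and their differences were picked as the extremes of 1801. The differences were smaller in some genes with more UMIs, 0.69 for Dnajb3, 0.63 for Psme4, -0.48 for Tnp1 and -0.20 for Prm1. Psme4 was higher in KO also in Sd3, its highest cluster, with 679 CPM against 482 CPM in WT.

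Transcript structure was read for 1553 of the 1801 genes (86.2%), taking for each its longest coding transcript in GENCODE vM21 (GRCm38). The shortest transcripts had the lowest ratios. In the shortest 20%, up to 1069 bases, the median log2 ratio was -0.32 in WT and -0.49 in KO, and in the next 20% -0.10 and -0.19. The 20% of genes with the shortest 3′ UTRs, up to 139 bases, had medians of -0.33 and -0.46, and the middle 20% had 0.00 and 0.01. The relation was weak across genes, with a Spearman rho of 0.08 in WT and 0.16 in KO for the 3′ UTR length, given as a description over genes that share these libraries. Among abundant transcripts of Sd10 the annotated 3′ UTR varied, with 33 bases in Prm2, 120 in Oaz3 and 240 in Smcp. It had 594 bases in Pebp1 and 1190 in Crisp2, against a median of 559 over the 1553 genes. All 5 of these genes were higher in Sd10 than in Sd9. Prm1 and Fabp9, which were also abundant and have short 3′ UTRs of 158 and 129 bases, were lower in CPM in both libraries. These genes are examples and do not show how length and ratio relate. The 20% of genes with the highest GC content had medians of 0.11 and 0.06.

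The study connects Tex13a with the RNA motif AGGUAA, so the DNA letters AGGTAA were searched in the sense strand of annotated 3′ UTRs. They occur in 286 of the 1553 genes (18.4%), in 24 of 195 genes 2-fold lower in both libraries (12.3%), in 28 of 174 genes 1.5-fold higher in both (16.1%) and in 234 of the other 1184 (19.8%). Per 1000 bases of 3′ UTR this made 0.163, 0.187 and 0.237 motifs, and the lower genes had shorter 3′ UTRs, with a median of 284 against 559 bases over all. A match is a run of letters in the annotation and not a binding site. The 4 windows below are shown because they belong to 3 of the 12 highest genes and to 1 of the 12 lowest, so that the motif occurs at both ends of the comparison. Asxl2 and Svip have 2 matches each, of which 1 is shown. The motif is in capitals, each window runs 5′ to 3′ on the strand of the gene, and all lie in annotated 3′ UTRs.
Gpat4, chr8:23172028-23172057, minus strand: ttcttaccagctAGGTAAagaattcgttaa
Scrt1, chr15:76518406-76518435, minus strand: gggggtgaggtgAGGTAAggagcgccctcc
Asxl2, chr12:3501886-3501915, plus strand: tcatgctgtgagAGGTAAgacagtgtgtag
Svip, chr7:51998520-51998549, minus strand: tcatgaatagctAGGTAAgacatagaattg
The log2 ratio of Sd10 to Sd9 was above 0.9 in both libraries for the first 3 of these genes and below -2.4 for Svip.

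Single Sd10 cells differed from each other in their shares of Prm1, Oaz3 and Prm2. The share of Prm1 in a cell's UMIs had a median of 2.90% in WT and 2.59% in KO, from 0.236% to 13.1% and from 0.137% to 12.6%. In Sd9 the medians were 16.5% and 15.05%. The 5th percentile of Prm1 in Sd9 was passed by 11 of 184 WT cells of Sd10 (5.98%) and by 39 of 278 KO cells (14.03%), so the clusters overlapped little in this transcript. Oaz3 had medians of 2.89% and 2.87%, with maxima of 10.5% and 12.02%, and all Sd10 cells lay at or above the 5th percentile of Sd9. At or below the 95th percentile of Oaz3 in Sd9 were 19 of 184 WT cells of Sd10 (10.3%) and 41 of 278 KO cells (14.7%). Prm2 ran from 0.168% to 18.7% in WT and from 0.158% to 16.9% in KO.

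**Figure D5:**
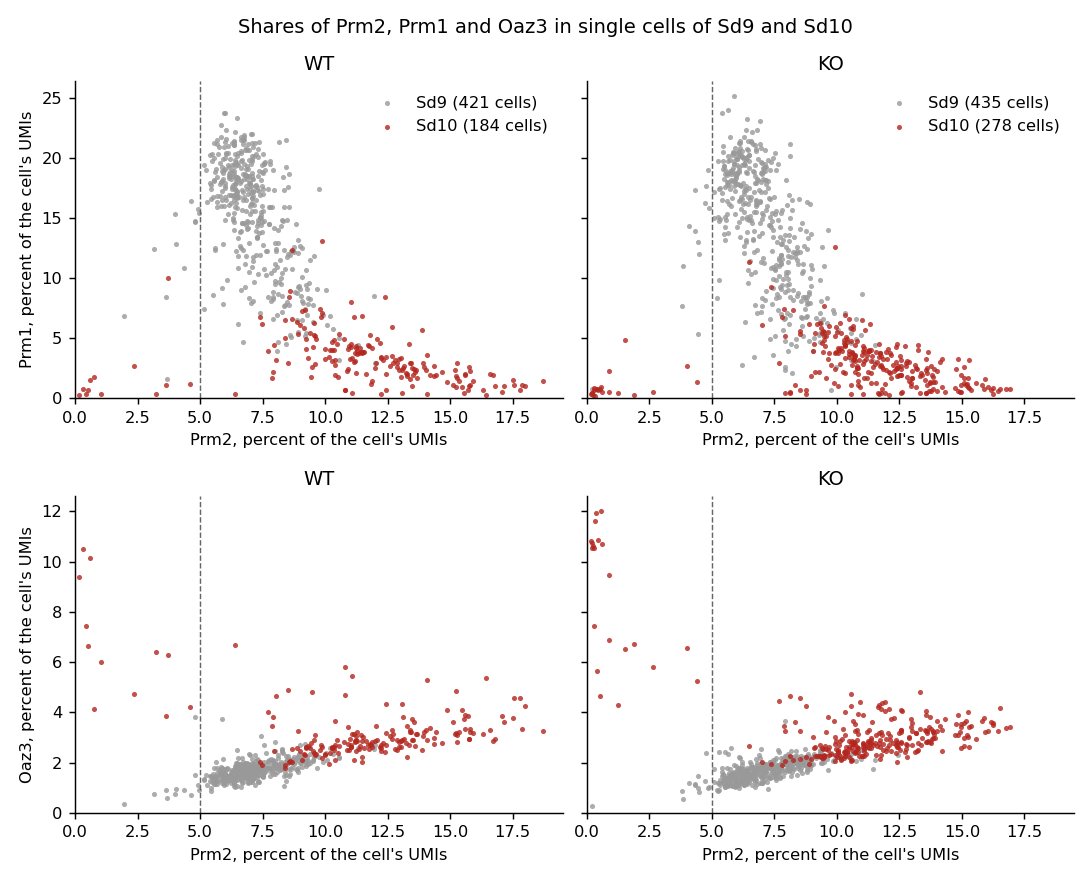
Share of a cell's UMIs from Prm1 (upper) and Oaz3 (lower) against the share from Prm2 in single cells of Sd9 (grey) and Sd10 (red) of WT and KO, with a dashed line at 5% Prm2. Sd10 cells lie to the right with little Prm1, and 12 WT and 21 KO cells of Sd10 lie to the left of the line with Oaz3 shares from 3.84% to 12.02%.

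A group of Sd10 cells lacked most of the Prm2 that characterised the rest. In 12 WT cells (6.52%, exact binomial interval 3.42 to 11.1) and 21 KO cells (7.55%, 4.74 to 11.3) Prm2 made up less than 5% of the UMIs, a limit chosen after the cells were seen. Only 1 WT and 2 KO cells lay within 1 percentage point of it, and no Sd10 cell had a share between 4.61% and 6.40% in WT or between 4.39% and 6.50% in KO. The median Prm2 share of these cells was 0.896% in WT and 0.549% in KO, against 11.8% and 11.4% in the other Sd10 cells. Their Smcp share was 10.1% and 14.01%, against 3.70% and 3.71%, and their Oaz3 share 6.34% and 9.46%, against 2.87% and 2.81%. They had medians of 3823 and 4753 UMIs per cell, against 5388 and 5441, and of 1032 and 914 genes, against 1079 and 1134. The median mitochondrial percent was 1.19% in WT and 0.602% in KO, against 0.470% and 0.706%. The part of depth and RNA quality in the shares was not tested. In Sd9, 12 WT and 13 KO cells lay below the same limit.

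Other transcripts went with Prm2 or with Smcp in these cells. Over 205 genes with at least 1000 UMIs in Sd10 of each library, 93 were at least 2-fold lower in both libraries and 25 at least 2-fold higher than in the other Sd10 cells. The minimum was taken over all Sd10 cells. Cells low in Prm2 held 58277 of their 1252689 UMIs in WT and 100761 of 1762193 in KO. The minimum thus favours genes high in the other cells, and the 2 counts cannot be weighed against each other. Spem1 had 172 CPM in them and 2134 CPM in the other cells of WT, and 119 and 2095 CPM in KO. Spa17 had 583 and 8042 CPM in WT and 734 and 8455 CPM in KO. The muscle-type glycolytic gene Pgam2 had 223 and 1697 CPM in WT and 218 and 1489 CPM in KO. At the other end, Hk1 had 3552 and 1068 CPM in WT and 3414 and 1098 CPM in KO. Odf1 had 4238 and 1422 CPM in WT and 3980 and 1312 CPM in KO, and Pebp1 had 16096 and 6104 CPM in WT and 17239 and 6157 CPM in KO. Gm42418, a predicted gene known to overlap ribosomal RNA sequence, had 21930 and 4949 CPM in WT and 12594 and 3570 CPM in KO. So transcripts that were alike in being higher in Sd10 than in Sd9, such as Spem1 and Odf1, were far apart in these cells. With these cells left out, 1.65% of genes were 2-fold higher in Sd10 than in Sd9 in WT and 1.16% in KO, and 21.5% and 23.6% were 2-fold lower.

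Markers of other cell types were scarce in Sd10. The 3 Sertoli markers with 1 possible row summed to 44.7 CPM in WT and 2.27 CPM in KO, the 3 Leydig markers to 7.18 and 11.9 CPM, and the 3 peritubular and endothelial markers to 16.8 and 9.65 CPM. The 5 macrophage and blood markers summed to 138 CPM in WT and 60.2 CPM in KO. In WT Cd74 made up 59.9 CPM of this sum and C1qb 56.7 CPM, and 1 of the 12 cells low in Prm2 held 74 of the 75 Cd74 UMIs. Of 18 Sertoli, 11 Leydig, 16 macrophage and blood, and 18 peritubular and endothelial markers listed, only these 14 could be matched to 1 row. The 21 markers of spermatogonia and meiosis summed to 1389 and 1487 CPM, of which Syce2 made up 946 and 970 CPM. Their part in the ratios of Sd10 to Sd9 was not tested beyond leaving out the 32 WT and 30 KO cells of Sd10 with at least 2 UMIs of the 14 somatic markers, after which the median ratios were -0.24 in WT and -0.28 in KO. C1qb, which was read in 51 of 184 WT and 64 of 278 KO cells of Sd10 and made up 48.8 CPM of the KO sum of 60.2 CPM, is among the 14.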

How the data were processed

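One WT and one Tex13a-KO testis library were analysed. The authors trimmed reads with fastp, aligned them to mm10 with STAR 2.5.3a, assigned them to Ensembl genes with featureCounts 1.6.2 and counted UMIs per gene and cell. The deposited counts are not normalized and cover the cells kept by a filter in Seurat 3.2.3, whose limits are not given in the sources used here; the clusters were formed after sctransform had removed batch effects. The deposited cell table gives cluster, UMI count and mitochondrial percent of each cell, as the authors computed them. Strand use in counting is not given in the sources used here, so overlapping and antisense genes cannot be told apart.

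The 25065 gene symbols are fewer than the 26758 matrix rows. Rows were anchored by the 30 mitochondrial symbols, whose sums matched in all 12408 cells, and only rows seen in fewer than 5 cells could lack a symbol. The 5476 symbols with 1 possible row carry 87.1% of UMIs in WT and 86.7% in KO. Log2 ratios use a prior of 1 UMI, shared by depth, and need 10 UMIs in the 2 sums, or 100 in each library for ranking. Intervals are exact (Poisson, binomial). No doublet caller was run. Named genes are the 4 markers, the 20 most abundant, the 12 highest and 12 lowest ratios in both libraries, the 8 highest and 8 lowest differences between libraries, and up to 4 genes with most UMIs per list of 29; other list members were named after their values were seen, as were genes of cells low in Prm2. The members and lists were chosen with earlier results of these data known. Alternatives are given in the closing section. Scripts (Python 3.11.15, numpy 2.4.6, scipy 1.17.1, pandas 2.3.3) were tested on simulated data.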

Additional observations from a re-analysis of the deposited data

Results flagged for a closer look

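For 6 of the 154 named genes the ratio of Sd10 to Sd9 had opposite signs in the 2 libraries, beyond counting error in each. Smim8 and Srp14 were named because they were among the extremes of the KO ratio minus the WT ratio. The opposite signs of Cfap126, Eif1, Pgam2 and mt-Rnr1 were lost under an alternative given below. With 1 library per genotype the difference was not tested. Smim8 had -0.65 in WT and 0.64 in KO (KO minus WT 1.28), Cfap126 had -0.20 and 0.38 (0.58), and Eif1, a translation initiation factor, had -0.12 and 0.06 (0.17). Srp14, of the signal recognition particle, had 0.68 in WT and -0.76 in KO (-1.44), the mitochondrial rRNA mt-Rnr1 had 0.16 and -0.42 (-0.58), and Pgam2 had 0.08 and -0.08 (-0.16).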

How the results depend on the processing

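No paired analysis was possible because the labels give no replicate numbers and there is 1 library per genotype, so no replicate could be left out. Of the summaries over all genes under the alternatives, 61 values moved by less than their spread, 38 moved and 2 reversed. The cause was not tested. Values are WT, then KO. The median ratio of Sd10 to Sd9 (-0.25, -0.37) and the percent of genes 2-fold higher (1.88, 1.42) became -0.12, -0.26 and 3.89, 3.07 with UMIs per cell, -0.15, -0.29 and 4.16, 2.49 with the mean of single-cell CPM, -0.18, -0.28 and 4.65, 2.78 with thinned cells, -0.21, -0.27 and 0.681, 0.774 with a minimum of 50 UMIs, -0.21, -0.31 and 0.669, 0.528 with a prior of 10 UMIs, and -0.14, -0.32 and 3.29, 2.17 without the 5% of cells with most UMIs. With no filter the WT median was -0.29 and the percents 4.69 and 4.22. Centring on the median of all genes gave 6.49 and 9.09, and 12.5% 2-fold lower in KO. Matching symbols without the rule on sparse rows gave 0.922 in KO. Without cells low in Prm2, an alternative chosen after seeing the data, the medians were -0.31 and -0.43, and without cells holding somatic markers the KO median was -0.28.

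The median ratio of KO to WT in Sd10 (0.04) reversed to -0.059 with UMIs per cell and was 0.11 without cells holding somatic markers. The median difference between KO and WT in the step (-0.04) reversed to 0.086 with centring, and was -0.055 with UMIs per cell, -0.00565 with thinned cells and -0.00557 without cells holding somatic markers.

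Of lists, the axoneme reversed to 0.011 in WT with the mean of single-cell CPM and to 0.053 and 0.12 with centring, and head-tail coupling to 0.023 in KO with centring. Other list medians changed sign as well, from values whose interval held 0. With centring these were, in WT, testis kinases (0.16), autophagy (0.15), ubiquitin (0.11) and round spermatid regulators (0.11), and in KO ubiquitin (0.26), mRNA decay (0.18) and autophagy (0.12). Autophagy was 0.19 and 0.053 with the mean of single-cell CPM, 0.33 and 0.34 with thinning and 0.15 and 0.32 with a minimum of 50 UMIs. Meiosis markers in WT were 0.19 with the mean of single-cell CPM and 0.35 with thinning. In all, 13 of 53 list medians, WT and KO counted apart, changed sign under an alternative, among them testis kinases and macrophage markers in KO. Of genes, centring reversed Cfap126 (0.045), Eif1 (0.13) and Rpl32 (0.00294) in WT, Dynll1 (0.046, 0.13), Fabp9 (0.14, 0.20) and Gpx4 (0.10, 0.11) in both, and Hils1 (0.16), Ndufb7 (0.12), Pgam2 (0.29), Pmfbp1 (0.24) and Psma6 (0.28) in KO. UMIs per cell reversed Eif1 (0.011) and Fabp9 (0.025) in WT, and Pgam2 (0.030) and Psma6 (0.022) in KO. Thinning reversed Hils1 (0.024) and mt-Rnr2 (-0.037) in KO, the mean of single-cell CPM mt-Rnr2 (-0.022) in KO, and leaving out cells low in Prm2 Cd74 (-3.96) and mt-Rnr1 (-0.061) in WT. These ratios, Cd74 apart, lay close to 0. Without doublet calls, cells of high UMIs were only left out as above.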

Other observations

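C1qb, listed here as a macrophage marker, followed the course of spermatid transcripts. It stood at 1.46 CPM in Sd2 of WT and 1.06 CPM in KO, at 31.3 and 31.0 CPM in Sd9, and at 56.7 and 48.8 CPM in Sd10, its highest cluster in both libraries. Its UMIs came from 51 of 184 WT cells and 64 of 278 KO cells of Sd10, with at most 6 UMIs in 1 cell. Cd74, another marker of the same list, came from 2 WT cells and 1 KO cell. Whether the row of C1qb counts this gene's own transcript was not tested.

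Syce2, a component of the synaptonemal complex of meiosis, was also higher in Sd10 (946 CPM in WT and 970 CPM in KO) than in Sd9 (579 and 552 CPM). In Sc2 of WT it was read at 1.49 UMIs per cell, against 6.44 in Sd10.

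Among the blood markers, Hbb-bs had a ratio of Sd10 to Sd9 of -5.01 and Hba-a1 one of -4.24 in WT. In Sd9 of WT, 1 cell held 672 of the 696 Hbb-bs UMIs and 1 cell held 438 of the 448 Hba-a1 UMIs.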
